A study of Rattus norvegicus with 3 samples.

Results

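Nfe2l2, Keap1, Nqo1, Hmox1, Gclc, Gclm, Txnrd1, Srxn1, Slc7a11 and Gsr, the genes of the transcription factor NRF2, of its inhibitor and of 8 of its well-known antioxidant targets, were followed in RNA of rat sciatic nerve. They were chosen by name, and all 10 were found by symbol among the 22608 genes of the mRNA count table. All 10 were also among the 14427 genes whose mean level over the libraries was at least 1 CPM, a gene's count scaled to a common library total. There were 3 libraries of total RNA depleted of ribosomal RNA, 1 per group, from male SD rats, all labelled as 30 days after injury. The AKBA library was made from nerve crushed with vascular forceps in rats given AKBA, a boswellic acid of Boswellia resin. The model library was made from crushed nerve without AKBA, and the sham library from nerve that was exposed and not crushed. Since the treatment field of the model library says just control, its crush is taken from its title letter and from the groups that the series names. The sources used here do not give the dose, route or duration of AKBA, nor whether a library held 1 animal or a pool.

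NRF2 is a transcription factor that cells make all the time and destroy at once. KEAP1 binds it and hands it to a CUL3 ubiquitin ligase, until oxidants or electrophiles react with cysteines of KEAP1 and let new NRF2 build up. NRF2 then pairs with a small MAF protein in the nucleus and switches on genes of glutathione and thioredoxin chemistry, of quinone detoxification and of haem breakdown. The protein is controlled mainly by its decay, so the mRNA of its targets is the usual readout of its activity.

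The libraries held 90071899 counts (AKBA), 89505656 counts (model) and 74184217 counts (sham), and ribosomal RNA rows took 7.59%, 4.20% and 11.5% of them in the same order. All 11 markers of myelinating Schwann cells were above 0 in every library. Each group is a single library, so differences here are between libraries and carry no p-value. The intervals given are exact 95% intervals for counting error only. A ratio of at least 2-fold, taken as log2 of (CPM + 1) in the first library over (CPM + 1) in the second, is used as a size rule. Between model and sham 4.52% of the 14427 genes were higher by 2-fold or more in model and 1.31% lower, 5.83% in all. These 652 and 189 genes became 376 and 293 with TMM scaling, since TMM took the median log2 ratio of all genes to -0.02 instead of 0.18. Between AKBA and model 2.69% of genes were higher by 2-fold or more in AKBA and 1.37% lower, 4.05% in all, and these 388 and 197 genes became 416 and 171 with TMM. Between AKBA and sham 5.83% were higher in AKBA and 2.08% lower, 7.91% in all, and these 841 and 300 genes became 579 and 435.

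Among the 10 genes, Slc7a11 was 3.46-fold higher in AKBA than in model, Nqo1 was 2.12-fold higher in model than in sham and Nfe2l2 was lower in both crushed nerves than in sham. Slc7a11 was the 1 gene of 10 past 2-fold in AKBA against model (background 4.05%) and in AKBA against sham (background 7.91%). Nqo1 was the 1 gene of 10 past 2-fold in model against sham (background 5.83%). The number lower by 2-fold or more was 0 of 10 in each comparison. The median log2 ratio of the 10 genes was -0.03 for AKBA against model, where the median of all genes was -0.04. It was 0.33 for model against sham and 0.28 for AKBA against sham, where the medians of all genes were 0.18 and 0.16. The list as a whole thus lay near all genes, and what differed were single members.

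**Figure D1:**
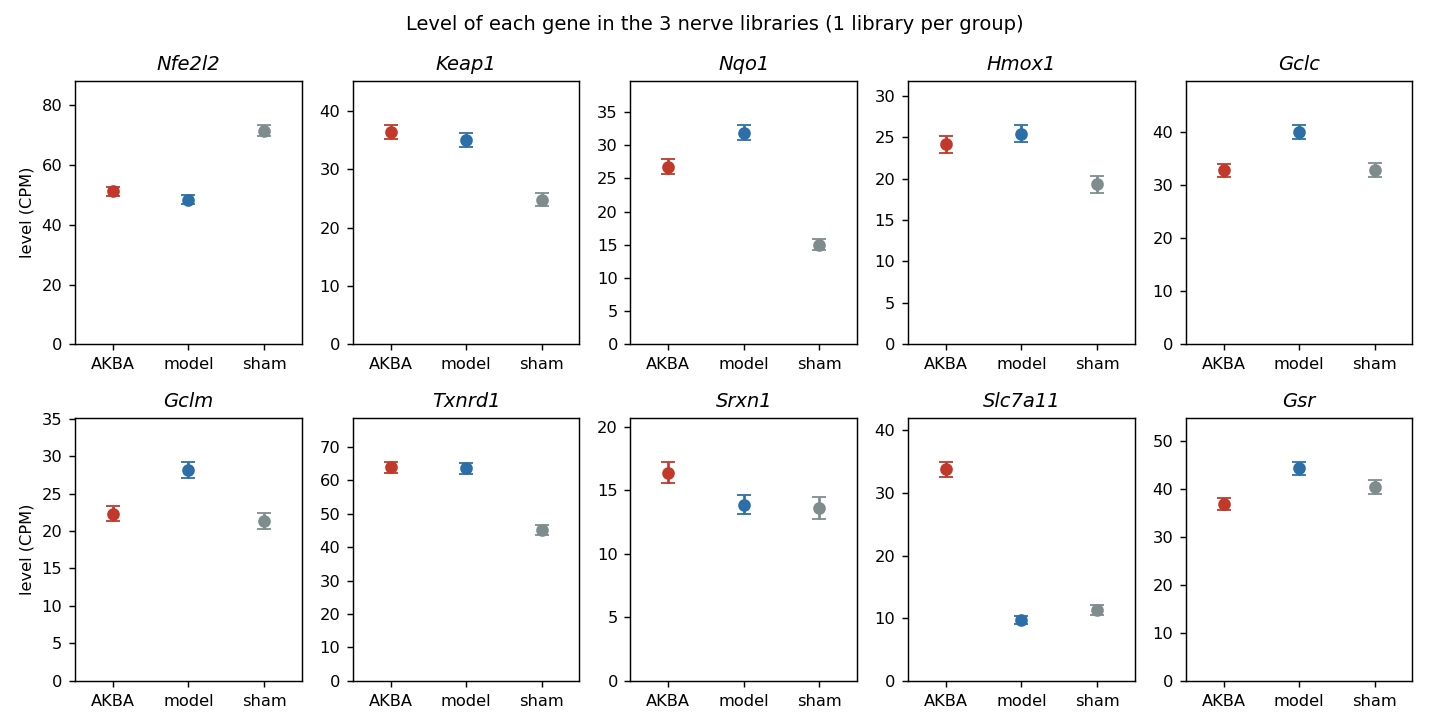
Level of each gene in CPM (vertical axes, each from 0) in the AKBA, model and sham libraries; points are the single library of a group and bars are exact 95% Poisson intervals for counting error. Slc7a11 stands at 33.8 CPM in AKBA against 9.76 CPM in model and 11.3 CPM in sham, whereas Nqo1, Keap1, Hmox1 and Txnrd1 are lowest in sham and Nfe2l2 is highest there.

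Nfe2l2, the gene of NRF2 itself, was highest in sham. It had 4618 counts in AKBA, 4329 in model and 5305 in sham, or 51.3, 48.4 and 71.5 CPM. The ratio of model to sham was 0.676 (0.650 to 0.704) and that of AKBA to sham 0.717 (0.689 to 0.746). AKBA and model lay close together, with a ratio of 1.06 (1.02 to 1.11). The log2 ratio of model to sham, -0.55, lay 0.74 below the median of all genes and ranked 13817 from the highest of 14427, without reaching 2-fold. The 5th percentile of all genes was -0.51 on this scale and 0.658 for ratios with no pseudocount, and Nfe2l2 lay beyond it on the first scale and inside it on the other.

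The transcripts of Nfe2l2 did not all follow the gene. The RefSeq transcript NM_031789.2 had 2682 counts in AKBA, 1842 in model and 3869 in sham, or 29.8, 20.6 and 52.2 CPM. It carried 58.1% of the gene's counts in AKBA (exact binomial 95% interval 56.6 to 59.5), 42.6% in model (41.1 to 44.0) and 72.9% in sham (71.7 to 74.1). Its ratio of model to sham was 0.395 (0.373 to 0.417), a larger difference than that of the whole gene, and its ratio of AKBA to model was 1.45 (1.36 to 1.54). The predicted transcript XM_006234398.3 carried 2.21%, 3.53% and 1.96% in AKBA, model and sham. Counts of the gene in no transcript that could be placed in it came to 20.4, 26.1 and 18.0 CPM in AKBA, model and sham, so this remainder was highest in model, where the placed transcript was lowest. How reads shared by transcripts were divided is not stated in the sources used here, so these shares are those of the authors' counting.

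**Figure D2:**
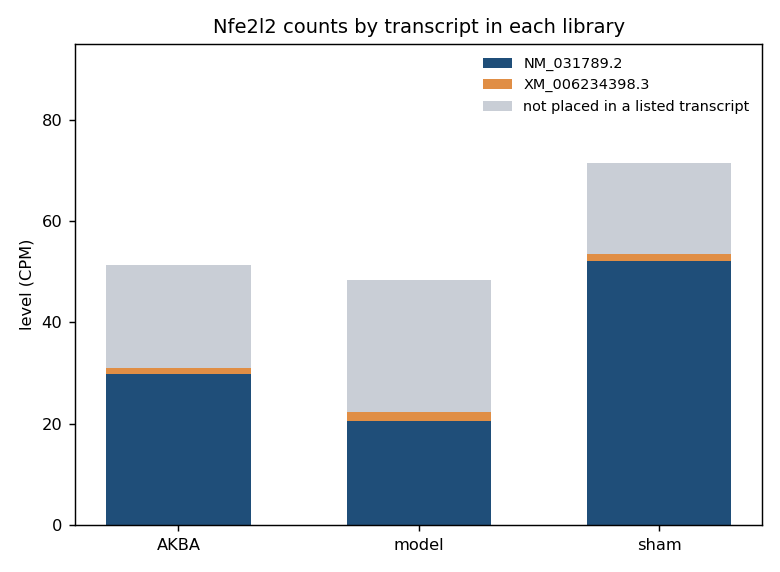
Level of Nfe2l2 in CPM (vertical axis, from 0) in the AKBA, model and sham libraries, divided into its placed transcripts and the counts placed in no listed transcript. The part of NM_031789.2 is 29.8 CPM in AKBA, 20.6 CPM in model and 52.2 CPM in sham, and the unplaced part is 20.4, 26.1 and 18.0 CPM.

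Keap1, the inhibitor, went opposite to Nfe2l2, with 3276 counts in AKBA, 3132 in model and 1838 in sham, or 36.4, 34.99 and 24.8 CPM. AKBA and model did not differ beyond counting error (ratio 1.04, 0.989 to 1.09), and sham lay below both. The ratio of model to sham was 1.41 (1.33 to 1.497), that of AKBA to sham was 1.47 (1.39 to 1.56), and 3272, 3129 and 1837 of the counts were in the predicted transcript XM_006242591.3.

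Nqo1 encodes the quinone reductase NQO1, a widely used marker of NRF2 activity. It had 2411 counts in AKBA, 2852 in model and 1114 in sham, or 26.8, 31.9 and 15.0 CPM. The crushed nerves, with and without AKBA, were high and sham was low. The ratio of model to sham was 2.12 (1.98 to 2.28), with a log2 ratio of 1.04 that lay 0.86 above the median of all genes and ranked 588 from the highest. The 95th percentile of all genes was 0.96 on this scale, but 2.21 for ratios with no pseudocount, which Nqo1 did not pass. The log2 ratio was below the 2-fold line of 1 under other scalings, at 0.83 with TMM scaling, 0.85 with DESeq2 size factors, 0.84 with upper quartile scaling and 0.93 with the library totals free of ribosomal RNA. The ratio of AKBA to sham was 1.78 (1.66 to 1.92) and that of AKBA to model 0.840 (0.795 to 0.887).

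The sum of myelinating Schwann cell markers differed the same way, with 36991 CPM in AKBA, 42191 CPM in model and 18410.4 CPM in sham. Of the 11 markers, 6 were past 2-fold in model against sham. In AKBA against model 5 were higher in AKBA and 6 were not. The sums of 8 endothelial markers were 916 CPM in AKBA, 985 CPM in model and 695 CPM in sham. The fat cell markers went the other way, at 1992.6, 3868 and 7619 CPM in AKBA, model and sham, with 8 of 8 below 0 in model against sham. None of the Schwann cell, endothelial or fat cell markers was at 0 in any library. Sox10, Pecam1 and Plin1 define these cells. Sox10 had 106.8, 77.3 and 32.4 CPM in AKBA, model and sham, so it was highest in AKBA and not in model. Pecam1 had 136.5, 160.3 and 83.6 CPM, and Plin1 had 107, 184 and 281 CPM. The part of these cells in the Nqo1 level was not tested. In bulk RNA, fewer cells of a type and less RNA per cell cannot be told apart.

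Hmox1 encodes haem oxygenase 1, which breaks haem down to biliverdin, iron and carbon monoxide and is strongly made by macrophages that clear red cells. It had 2176 counts in AKBA, 2277 in model and 1433 in sham, or 24.2, 25.4 and 19.3 CPM. The ratio of model to sham was 1.32 (1.23 to 1.41) and that of AKBA to model 0.9496 (0.895 to 1.01). AKBA and model thus did not differ beyond counting error. The log2 ratio of model to sham, 0.38, lay 0.20 above the median of all genes and became 0.17 with TMM scaling. Red cell markers had sums of 496 CPM in AKBA, 651 CPM in model and 356 CPM in sham over 6 genes, with Alas2 and Slc4a1 above 0 in each. The sums of 12 macrophage markers were 3409, 1811 and 2827 CPM in AKBA, model and sham, lowest in model. In AKBA against model 5 of these 12 were higher in AKBA, and their median log2 ratio of -0.13 goes against the sums. The part of red cells and macrophages in the Hmox1 level was not tested.

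Slc7a11 encodes xCT, the light chain of the cystine/glutamate exchanger that brings in cystine for glutathione synthesis. It had 3044 counts in AKBA, 874 in model and 838 in sham, which is 33.8, 9.76 and 11.3 CPM. The AKBA library was high and the other 2 were low. The ratio of AKBA to model was 3.46 (interval 3.21 to 3.74) and the log2 ratio 1.69, which ranked 176 from the highest among 14427 genes. The ratio of AKBA to sham was 2.99 (2.77 to 3.23). The ratio of model to sham was 0.864 (0.785 to 0.951), so the level was slightly lower in model than in sham. The log2 ratio of AKBA to model stayed between 1.68 and 1.79 over all scalings, pseudocounts and ways of counting tried.

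Markers of other cells differed between the same libraries. All 10 skeletal muscle markers were at least 2-fold higher in AKBA than in model, with summed levels of 6269.8 CPM in AKBA, 855 CPM in model and 422 CPM in sham. Of 12 macrophage markers, 4 were at least 2-fold higher and 1 lower, with sums of 3409, 1811 and 2827 CPM in AKBA, model and sham, and a median log2 ratio of -0.13 that goes against the sums. Lyz2, at 1196, 387 and 1039 CPM, and Gpnmb, at 1102, 47.0 and 527 CPM, differed by the widest margins in CPM, and the broad macrophage gene Csf1r stood at 208, 278 and 261 CPM. Of 7 skin and hair genes 4 passed the level filter and 2 of them were at least 2-fold higher, with sums of 95.1, 8.51 and 8.17 CPM over all 7. Krt86, 1 of these 2, passed the filter only through AKBA, at 17.0, 0.0335 and 0.0674 CPM in AKBA, model and sham. The defining markers of these cells were above 0 in all 3 libraries, among them Acta1 for muscle, Adgre1 for macrophages and Krt5 for skin. Pigment cell genes, looked at after the values of Slc7a11 were seen because xCT also serves pigment making, had sums of 56.4, 47.9 and 50.7 CPM over 7 genes, nearly all of it Mitf, which other cells also express. Tyr and Slc45a2 were at 0 in each library, and Tyrp1 had 0.255, 0 and 0.377 CPM in AKBA, model and sham. In the same order Mlana had 0.533, 0 and 0.135 CPM and Dct 1.05, 0.581 and 0.647 CPM, both highest in AKBA. Pmel had 1.14, 1.75 and 0.971 CPM and was highest in model. What part the muscle, macrophage, skin or pigment cell RNA has in the Slc7a11 level was not tested.

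The other genes of cystine supply and glutathione synthesis had other orders. Slc3a2, which encodes 4F2hc, the heavy chain that xCT needs to reach the cell surface, stood at 140.0 CPM in AKBA, 147.8 CPM in model and 109.6 CPM in sham. Gclc encodes the catalytic subunit of glutamate-cysteine ligase, the rate-limiting enzyme of glutathione synthesis. Gclc had 2958 counts in AKBA, 3589 in model and 2436 in sham, or 32.8, 40.1 and 32.8 CPM, with a ratio of AKBA to model of 0.819 (0.780 to 0.860) and of model to sham of 1.22 (1.16 to 1.29). Gclm encodes the modifier subunit of the same enzyme and had 2011 counts in AKBA, 2519 in model and 1583 in sham, or 22.3, 28.1 and 21.3 CPM. Its ratio of AKBA to model was 0.793 (0.748 to 0.842) and that of model to sham 1.32 (1.24 to 1.41). The 2 subunits were thus highest in model and lay close together in AKBA and sham, where the counting intervals of their ratios held 1 (0.948 to 1.06 for Gclc and 0.979 to 1.12 for Gclm). The difference between model and sham was smaller under TMM scaling, where the log2 ratios of 0.28 for Gclc and 0.38 for Gclm became 0.07 and 0.18. The direction between AKBA and sham depended on the scaling, since their log2 ratios of 0.0001 and 0.06 became -0.16 and -0.10 with TMM scaling. Gss, glutathione synthetase, had 20.9 CPM in AKBA, 24.9 CPM in model and 22.8 CPM in sham.

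Gsr encodes glutathione reductase, which returns oxidised glutathione to its reduced form with NADPH. Gsr had 3317 counts in AKBA, 3970 in model and 2996 in sham, or 36.8, 44.4 and 40.4 CPM. With scaling to total counts it was highest in model and lowest in AKBA, at a ratio of AKBA to model of 0.830 (0.793 to 0.870) and of AKBA to sham of 0.912 (0.868 to 0.958). Its ratio of model to sham, 1.10 (1.05 to 1.152), was below the median of all genes and turned to a log2 ratio of -0.08 with TMM scaling.

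The promoters are shown for the members whose libraries stood furthest apart (Slc7a11 and Nqo1) and for the 3 whose printed window held a motif searched. Promoters of 8 of the 10 genes were matched by symbol in a RefSeq table of the rat assembly GRCr8, and Txnrd1 had 2 windows there. Each window ran from 250 bases before to 50 bases after the annotated start, and 270 bases to position 20 after the start are printed, 5′ to 3′ on the strand of the gene. Capitals mark matches, on either strand, to the core of the antioxidant response element, TGACNNNGC, or to the AP-1 site TGAGTCA, which can lie inside the elements that small MAF proteins bind. A stretch can match both strings, on opposite strands, and none did in these windows.
Slc7a11 promoter, GRCr8 chr2:136668245-136668514, minus strand: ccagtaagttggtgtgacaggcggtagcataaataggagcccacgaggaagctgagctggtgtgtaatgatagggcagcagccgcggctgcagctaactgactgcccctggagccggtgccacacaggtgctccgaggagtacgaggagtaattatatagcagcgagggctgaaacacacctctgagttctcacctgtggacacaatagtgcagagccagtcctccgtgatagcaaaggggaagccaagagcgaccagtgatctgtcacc
Nqo1 promoter, GRCr8 chr19:52220248-52220517, minus strand: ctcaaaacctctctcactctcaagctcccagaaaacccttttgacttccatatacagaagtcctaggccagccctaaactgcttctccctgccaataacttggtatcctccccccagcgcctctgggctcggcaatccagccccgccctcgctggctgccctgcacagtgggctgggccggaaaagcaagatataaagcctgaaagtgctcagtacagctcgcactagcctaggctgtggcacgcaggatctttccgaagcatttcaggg
Gclm promoter, GRCr8 chr2:213031885-213032154, plus strand: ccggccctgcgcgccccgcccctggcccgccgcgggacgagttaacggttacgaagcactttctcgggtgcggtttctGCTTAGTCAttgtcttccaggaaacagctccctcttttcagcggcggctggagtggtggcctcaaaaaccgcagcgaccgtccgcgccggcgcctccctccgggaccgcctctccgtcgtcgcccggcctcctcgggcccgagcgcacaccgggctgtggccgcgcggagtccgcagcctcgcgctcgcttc
Txnrd1 promoter, GRCr8 chr7:22755885-22756154, minus strand: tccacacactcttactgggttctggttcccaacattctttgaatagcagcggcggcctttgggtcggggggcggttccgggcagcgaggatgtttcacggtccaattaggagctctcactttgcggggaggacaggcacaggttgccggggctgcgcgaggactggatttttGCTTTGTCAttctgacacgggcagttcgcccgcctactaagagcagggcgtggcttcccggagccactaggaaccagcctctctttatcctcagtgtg
Srxn1 promoter, GRCr8 chr3:161064562-161064831, plus strand: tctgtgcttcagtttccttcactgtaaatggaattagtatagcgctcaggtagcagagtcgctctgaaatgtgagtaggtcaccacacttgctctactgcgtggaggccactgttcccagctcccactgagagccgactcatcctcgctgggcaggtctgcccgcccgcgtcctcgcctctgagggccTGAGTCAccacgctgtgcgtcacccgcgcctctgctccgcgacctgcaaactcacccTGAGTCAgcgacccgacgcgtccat

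The core TGACNNNGC was found in windows of 3 members. It lay at positions -172 to -164 in Gclm and -78 to -70 in the first Txnrd1 window, on the opposite strand in these cases, where it reads TGACTAAGC and TGACAAAGC. In Nfe2l2 it lay at positions 39 to 47 on the strand of the gene. Of all 33469 windows of the same length, 12.1% held this core. TGAGTCA was found at positions -62 to -56 and -5 to 2 in Srxn1 and in 4.63% of all windows. Neither string was found in the windows of Slc7a11 and Nqo1, the members past 2-fold, nor in those of Keap1 and Gclc. A match describes letters only, and an absent match says nothing about sites outside these windows.

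Txnrd1 encodes the cytosolic thioredoxin reductase, which passes electrons of NADPH to thioredoxin. It had 5759 counts in AKBA, 5689 in model and 3354 in sham, or 63.9, 63.6 and 45.2 CPM. The crushed nerves did not differ beyond counting error (ratio of AKBA to model 1.01, 0.970 to 1.04) and lay above sham (ratio of model to sham 1.41, 1.35 to 1.47). This is the same order as for Keap1, and for both genes the log2 ratio of model to sham was 0.48, or 0.27 with TMM scaling.

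Srxn1 encodes sulfiredoxin, which repairs overoxidised peroxiredoxins, and was highest in AKBA by a small margin. It had 1476 counts in AKBA, 1240 in model and 1006 in sham, or 16.4, 13.9 and 13.6 CPM. The ratio of AKBA to model was 1.18 (1.10 to 1.28), and that of model to sham, 1.02 (0.939 to 1.11), held 1 in its interval and turned below 1 with TMM scaling (log2 ratio -0.17).

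**Figure D3:**
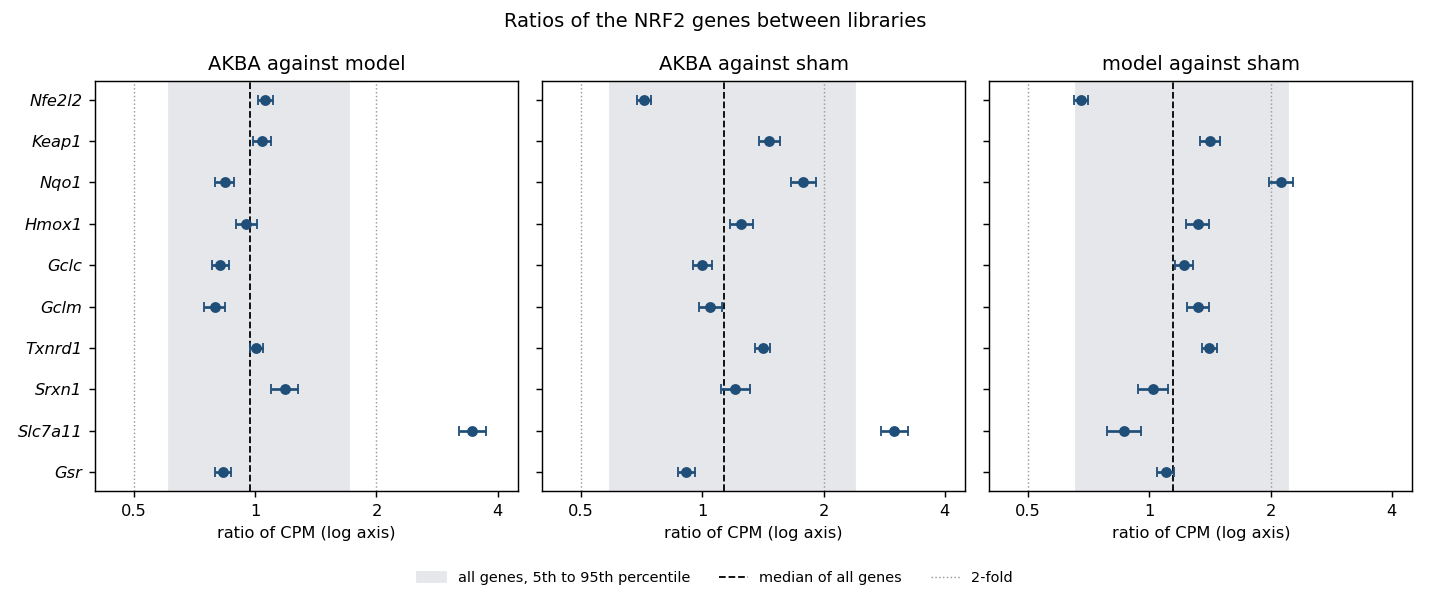
Ratio of CPM between libraries, with no pseudocount (horizontal log axes), for the 10 genes in the 3 comparisons; points are single ratios, bars exact 95% counting intervals, the grey band the 5th to 95th percentile of 14427 genes, dashed lines their median and dotted lines 2-fold. Slc7a11 lies right of the band in both comparisons of AKBA, and all other points lie inside it, with Nqo1 (2.12) and Nfe2l2 (0.676) near its edges (2.21 and 0.658) in model against sham.

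The 10 genes differed in which library was highest. Keap1, Txnrd1 and Hmox1 did not differ between AKBA and model beyond counting error and were lower in sham, Nqo1, Gclc, Gclm and Gsr were highest in model (Gsr in sham with TMM, DESeq2 or upper quartile scaling), Srxn1 and Slc7a11 were highest in AKBA, and Nfe2l2 was highest in sham. In model against sham, 8 of the 10 genes had a log2 ratio above 0, beside 71% of all genes. Counting intervals were above 1 for 7 of the 10 and below 1 for 2. Relative to the median of all genes 6 of 10 were higher and 4 lower. In AKBA against model 5 of the 10 had a log2 ratio above 0, beside 42.5% of all genes, and 3 had intervals above 1, 4 below and 3 held 1. In AKBA against sham 8 of the 10 had a log2 ratio above 0, beside 65.7% of all genes, and 6 had intervals above 1 and 2 below. The comparisons share libraries, so their values are not independent of each other.

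The partners and rivals of NRF2 were looked up in a list of 8 CNC, BACH and small MAF genes, all of which passed the level filter and none of which differed 2-fold. In AKBA against model their median log2 ratio was 0.20, beside -0.04 for all genes, and 5 of 8 were above 0. Bach1, which encodes a haem-regulated repressor of NRF2 targets such as Hmox1, had 45.2, 29.7 and 29.2 CPM in AKBA, model and sham, with a ratio of AKBA to model of 1.52 (1.45 to 1.60). Mafg, a small MAF partner, had 54.3, 45.7 and 38.2 CPM in AKBA, model and sham. Nfe2l1, the related factor NRF1 that controls proteasome genes, had 298, 348 and 231 CPM. Among 12 measured genes of a list on KEAP1, ubiquitin and the degradation of NRF2, 0 differed 2-fold in any comparison. For both lists the backgrounds run from 4.05% to 7.91% across the comparisons. Cul3 had 167, 206 and 166 CPM in AKBA, model and sham. Sqstm1 encodes p62, an autophagy receptor that binds KEAP1 and is an NRF2 target as well, and it had 243, 185 and 155 CPM.

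Over 12 lists of the wider pathway, 144 genes other than the 10 passed the level filter. By 2-fold or more, 4 of them were higher and 5 lower in AKBA against model, in model against sham 0 and 3, and in AKBA against sham 4 and 9. The median log2 ratios were -0.10, 0.11 and 0.02 in that order, beside -0.04, 0.18 and 0.16 for all genes, and the medians against sham turned to -0.10 for model and -0.14 for AKBA with TMM scaling. As shares, 4 of 144 higher and 5 of 144 lower stand beside backgrounds of 2.69% and 1.37% in AKBA against model. In model against sham, 0 of 144 higher and 3 of 144 lower stand beside 4.52% and 1.31%. In AKBA against sham, 4 of 144 higher and 9 of 144 lower stand beside 5.83% and 2.08%. Both counts of 4 higher include Chac1, which passed the level filter only through its level in AKBA.

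**Figure D4:**
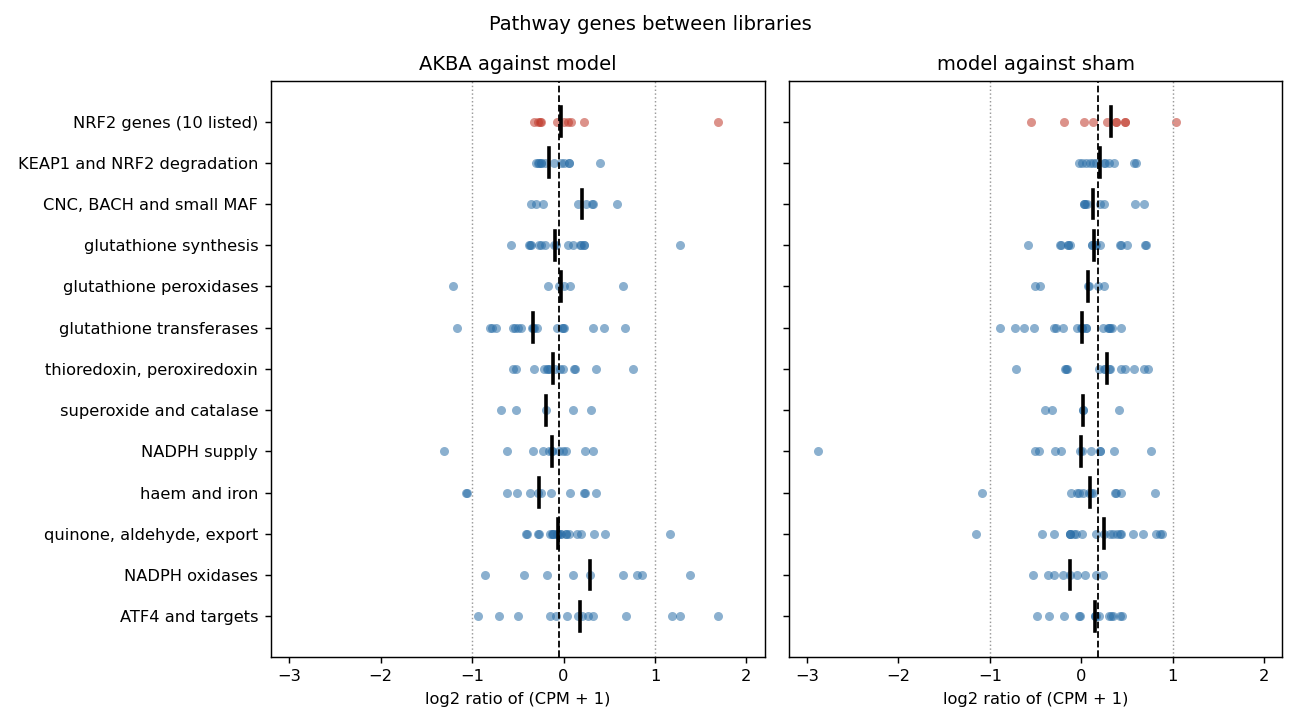
Log2 ratio of (CPM + 1) (horizontal axes) for genes past the level filter in each pathway list, for AKBA against model (left) and model against sham (right); dots are genes, black ticks list medians, dashed lines the median of all genes and dotted lines 2-fold. Slc7a11 is the dot at 1.69 among the 10 genes, and the glutathione transferase median of -0.33 is the lowest of the lists in AKBA against model.

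Chac1 encodes an enzyme that degrades glutathione in the cytosol, and like Slc7a11 it is a known target of the stress factor ATF4. It had 255 counts in AKBA, 52 in model and 31 in sham, or 2.83, 0.581 and 0.418 CPM, with a ratio of AKBA to model of 4.87 (3.60 to 6.70). Of 14 genes of a list of ATF4 and its targets, which holds Slc7a11 and Chac1, 3 were at least 2-fold higher in AKBA than in model and 0 lower, where the backgrounds are 2.69% and 1.37%. The median log2 ratio was 0.18 beside -0.04 for all genes. Slc7a11 is itself 1 of the 3, and the list was chosen with its value known. Chac1, another of the 3, passed the level filter only through AKBA, the library in which it was high. The third was Atf3, an injury-induced transcription factor, at 49.4, 21.2 and 16.5 CPM in AKBA, model and sham. The genes of the list did not all go the same way. Ddit4, a stress-induced inhibitor of mTORC1, had 21.3, 12.9 and 9.21 CPM in AKBA, model and sham and was past 2-fold against sham and not against model. Asns, asparagine synthetase, had 13.1, 26.0 and 36.8 CPM and was at least 2-fold lower in AKBA than in sham. Atf4 itself had 199, 221 and 176 CPM in AKBA, model and sham.

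Glutathione transferases, which attach glutathione to electrophiles, had lower values in AKBA than in model for most genes. Of 19 past the filter, 4 had a log2 ratio above 0 in AKBA against model, where the background is 42.5%, and the median log2 ratio was -0.33. By 2-fold or more 0 of the 19 were higher and 1 lower, where the backgrounds are 2.69% and 1.37%. Against sham 3 of the 19 were lower by 2-fold or more in AKBA (background 2.08%). Mgst1, a membrane-bound transferase, had 136.5, 228 and 422 CPM in AKBA, model and sham, and Gstz1, which also degrades tyrosine, had 26.7, 46.4 and 77.0 CPM. Gsto2 had 1.95, 5.63 and 5.82 CPM. Gstp1, a textbook NRF2 target, went the other way at 132, 82.7 and 67.3 CPM. Mast cell markers were lower in AKBA than in model as well, 7 of 7 of them and 5 by 2-fold or more, with sums of 99.0, 278 and 196 CPM in AKBA, model and sham and none at 0. So were all 8 fat cell markers, 2 of them by 2-fold or more, with sums of 1992.6, 3868 and 7619 CPM and none at 0. The transferase list holds Hpgds, a prostaglandin synthase abundant in mast cells, at 9.81, 14.6 and 11.6 CPM. The part of mast cells and fat cells in the transferase values was not tested. Reads of near-identical transferase genes may have been divided between them, so single values in this family are uncertain.

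The same order, with AKBA lowest and sham highest, was seen for several genes of peroxide removal and NADPH supply. Me1, the cytosolic malic enzyme that makes NADPH for fatty acid synthesis and is also an NRF2 target, had 50.2, 125 and 931 CPM in AKBA, model and sham, with a ratio of AKBA to model of 0.401 (0.387 to 0.415) and of model to sham of 0.135 (0.132 to 0.137). Catalase (Cat) had 171, 275 and 364 CPM in AKBA, model and sham, and Gpx2 had 3.83, 10.1 and 14.2 CPM. Slc1a5, a glutamine carrier, had 74.6, 112 and 167 CPM. Fat cell markers stood in this order as well (1992.6, 3868 and 7619 CPM summed over 8 genes), and their part in these values was not tested. Of 12 NADPH supply genes, Me1 was the only one past 2-fold in any comparison, where the backgrounds run from 4.05% to 7.91%.

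Thioredoxin and peroxiredoxin genes stayed under 2-fold. Of 14 genes 0 passed 2-fold in any comparison, where the backgrounds run from 4.05% to 7.91%. Thioredoxin (Txn1) had 88.1, 81.0 and 67.4 CPM in AKBA, model and sham, and Prdx1, a peroxiredoxin and NRF2 target, had 194, 220.1 and 245 CPM. Of 6 glutathione peroxidases past the filter, Gpx2 was the only one to pass 2-fold, and Gpx1, the main cytosolic form, had 193, 122.5 and 103 CPM. The superoxide dismutase Sod1 had 130, 149 and 146 CPM in AKBA, model and sham. Sod2 had 93.3, 87.1 and 86.0 CPM, so it was not lower in AKBA than in model. Both are in a list of 5 with a median log2 ratio of -0.19 in AKBA against model. Cat was the only gene of this list past 2-fold, in AKBA against sham.

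The genes of a list on haem and iron had their own pattern. Fth1, the ferritin heavy chain, had 2820 CPM in AKBA, 4340 CPM in model and 2481 CPM in sham, with a ratio of model to sham of 1.75 (1.74 to 1.76) and of AKBA to model of 0.650 (0.647 to 0.653). Ftl1, the light chain, had 970, 829 and 767 CPM in AKBA, model and sham. Ferritin genes have many near-identical copies, so these counts are uncertain. The chains differed in order, with the heavy chain highest in model and the light chain highest in AKBA. Slc40a1, the iron exporter ferroportin, had 14.7, 31.7 and 34.4 CPM in AKBA, model and sham, and Cd163, the macrophage receptor for haemoglobin, had 101, 213 and 165 CPM. Both were at least 2-fold lower in AKBA than in model, the 2 such genes among 12 of this list (background 1.37%). Haptoglobin (Hp) had 3.87, 3.13 and 7.75 CPM and was past 2-fold in model against sham, with model lower. Blvrb, which reduces biliverdin, had 24.2, 31.4 and 31.1 CPM.

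Of 21 quinone, aldehyde and export genes past the filter, 1 was at least 2-fold higher in AKBA than in model (background 2.69%). It was Ugt1a7c, at 22.6, 9.52 and 22.3 CPM in AKBA, model and sham, a glucuronosyltransferase that shares exons with its neighbours, so that its counts are uncertain. Akr1b8, an aldo-keto reductase, had 18.2 CPM in AKBA, 13.1 CPM in model and 6.96 CPM in sham, and was at least 2-fold higher in AKBA than in sham (ratio 2.61, 2.37 to 2.89). Among NADPH oxidase genes, whose products make superoxide, Cybb had 123, 46.5 and 67.6 CPM in AKBA, model and sham, with a ratio of AKBA to model of 2.65 (2.56 to 2.75). Cybb, the phagocyte catalytic subunit, was the only one of 9 past 2-fold, where the background in AKBA against model is 4.05%. The median log2 ratio of the list was 0.29 in AKBA against model. Macrophage markers were also higher in AKBA than in model in sum (3409 against 1811 CPM, with 5 of 12 genes above 0 and a median log2 ratio of -0.13), and their part in the Cybb level was not tested.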

How the data were processed

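Total RNA of sciatic nerve was depleted of ribosomal RNA with biotin probes and copied from random primers, per the labels' protocols. Tools listed in the submitters' processing notes, with no role given, are HISAT2, StringTie, limma, DESeq2 and bcl2fastq 2.0, and the notes list the mouse build mm10, although the row names are rat genes. The strand setting and the rule for shared reads are not stated there or in the labels. The deposited values are counts per gene and per transcript. The model column held 2 text characters after each count, which were removed. Its unit was entered as other for that reason. Columns were assigned by the key given with the series.

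CPM, ratios and intervals were computed here (Python 3.11.15, scipy 1.17.1): CPM from the total of the table, log2 ratios with a pseudocount of 1 CPM, exact Poisson intervals for levels, conditional Clopper-Pearson intervals for ratios. Reads copied by PCR are not independent molecules, so the intervals leave out all error but counting. Levels were not compared between genes, as no transcript lengths were used. Names and accessions were matched to RefSeq (GRCr8), ignoring accession versions, which placed 32086 of 55767 transcripts. edgeR 4.0.16 and DESeq2 1.42.0 gave alternative scalings. The intervals and the 2-fold rule were tried on simulated Poisson counts with a known fold. Such counts hold only the counting error that the intervals assume. The trial thus checks the computation and not how well the intervals suit real libraries.

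The 10 genes and all lists were chosen with earlier results of these data known. Named were the 10 genes, fixed partners (not all are reported here) and, per list and comparison, up to 3 genes past 2-fold. Genes outside this rule were named after their values were seen (Gstp1, Gpx1, Atf4, and the markers given beside a result). The lncRNA tables were not used.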

Additional observations from a re-analysis of the deposited data

How the results depend on the processing

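No paired analysis was possible because each group had 1 library, and for the same reason no replicate could be left out. Over 8 alternatives for each of the 10 genes in 3 comparisons (240 values), 171 moved by no more than the counting error of the reported value or, for values past 2-fold, stayed past it, 64 moved further without crossing 2-fold, 4 fell short of 2-fold (Nqo1) and 1 passed it. That 1 was Nfe2l2 in model against sham with sums of placed transcripts (log2 ratio -1.23), which leave out its unplaced counts. The number of the 10 genes at least 2-fold higher in model than in sham fell to 0, against 1 with total counts, with TMM, DESeq2 and upper quartile scaling and with totals free of ribosomal RNA, and the number lower became 1 with sums of transcripts. For AKBA against sham 2 of the 10 genes (Slc7a11 and Nqo1) were at least 1.5-fold higher, beside 2544 of all 14427 genes.

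The median log2 ratio of the 10 genes in model against sham was 0.12 with TMM, 0.14 with DESeq2, 0.13 with upper quartile scaling and 0.22 without ribosomal RNA. In AKBA against sham it was 0.13, 0.13 and 0.12 with the first 3. For the wider pathway the medians in model against sham were -0.10, -0.0894, -0.0923 and -0.00308 with the same 4 settings, and in AKBA against sham -0.14 with each of the 3 scalings. Pathway genes at least 2-fold higher in model than in sham numbered 1 without ribosomal RNA, at either smaller pseudocount and with no level filter, 3 with sums of transcripts and 13 at 1.5-fold, and those lower numbered 5 with sums of transcripts and 7 at 1.5-fold. At 1.5-fold, 13 and 7 of 144 stand beside 2162 and 552 of all 14427 genes. With sums of transcripts, 784 of 11206 genes were higher and 298 lower. In AKBA against model, 12 were higher and 14 lower at 1.5-fold, beside 806 and 776 of all 14427 genes. In AKBA against sham, 21 were higher and 23 lower at 1.5-fold, beside 2544 and 841 of all 14427 genes. With sums of transcripts 10 were higher, beside 928 of 11206 genes. Taking the 10 skeletal muscle marker genes out of the library totals changed none of these counts of the 10 genes or of pathway genes past 2-fold. These markers held at most 6269.8 CPM (in AKBA), so this setting could hardly move any ratio. It therefore says nothing about the part of muscle RNA in a gene's level. A count of 0 allows up to 0.0333 CPM in AKBA, 0.0335 CPM in model and 0.0404 CPM in sham.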

Other observations

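How many genes had a pattern like each of the 10 was counted among 10640 currently named genes averaging 5 CPM or more, as those whose log2 ratios of AKBA to model and of model to sham both lay within 0.25 of its own. For Slc7a11 there were 5 such genes, for Nfe2l2 275 and for Nqo1 327. For the other members there were from 1970 (Gclm) to 3566 (Hmox1). The 3 genes nearest to Slc7a11 over the 3 libraries were C3, Sh3bgr and Cnn1. C3, the central complement component, had 49.6 CPM in AKBA, 13.8 CPM in model and 16.0 CPM in sham, at a distance of 0.084 on the log2 scale. Sh3bgr, a gene abundant in muscle, had 10.9, 2.54 and 2.70 CPM in AKBA, model and sham, and Cnn1, the smooth muscle protein calponin, had 73.7, 25.1 and 30.6 CPM. With 3 libraries such likeness is a description of these values only.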
